A study of Mus musculus with 42 samples.

Results

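Pancreas was compared between unirradiated mice that carried a mutant p53 allele named AD and unirradiated mice without p53, across all genes, in 6 of the 42 libraries of the series. The libraries were chosen by the genotype and tissue in their labels, with 3 mice of genotype p53 AD/- (AD-700, AD-701 and AD-702) and 3 of genotype p53-null (Null-859, Null-923 and Null-1087). An AD mouse held 1 copy of the mutant allele over a null allele, so that no mouse in either group had wild-type p53. All 6 mice were 4 weeks old, carried the alterations in the germline and had a background of equal parts BALB/C and C57BL6. The study used them to ask how tissues of mice with mutant p53 differ in transcriptome from tissues without p53. Each library came from a mouse with its own animal number. The p-values of the pancreas test set each difference against the variation between these few mice, estimated with information shared across genes. Hour of harvest, feeding and sex were not in the labels used here. No wild-type pancreas was analysed here, so the comparison sets AD mice beside Null mice and does not show what wild-type p53 does in this organ. A part of the allele and a part of harvest hour or feeding cannot be told apart in these differences.

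p53 is a transcription factor that binds DNA as a tetramer, a pair of dimers, and the title of the series refers to p53 dimers. In response to DNA damage it switches on genes of growth arrest (Cdkn1a), of its own destruction (Mdm2) and of cell death (Bax, Bbc3), and in unstressed tissue Mdm2 keeps its level low. The exocrine pancreas is made mostly of acinar cells, which fill their transcriptome with digestive enzymes. The circadian clock, which recurs below, runs on a loop in which BMAL1 (Arntl) with CLOCK or NPAS2 drives the nuclear receptors REV-ERB-alpha (Nr1d1) and REV-ERB-beta (Nr1d2), which in turn hold down Arntl, Npas2 and Nfil3.

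The libraries held 19861977 to 24815911 counts each, and their 10 most abundant genes took 50.2 to 53.5% of them. The 33 acinar digestive enzymes took 63.7 to 68.5% of counts in AD and 50.7 to 63.5% in Null, while T cell markers summed to at most 4.86 normalised CPM, the counts of a gene relative to the TMM-scaled size of its library. Genes annotated as ribosomal RNA took 1.58, 1.33 and 3.49% of counts in AD-700, AD-701 and AD-702 and 16.4, 5.58 and 5.33% in Null-859, Null-923 and Null-1087. The groups did not overlap in this share, with a mean of 2.14% (SD 1.18) for the 3 AD mice, a mean of 9.11% (SD 6.34) for the 3 Null mice and a two-sided exact permutation p of 0.1, the smallest that 3 against 3 allows. Xist, the RNA of the inactive X chromosome, was high and Y-linked genes were near 0 in AD-702 and Null-859, 1 library of each group, so sex did not divide the groups. AD-702 and Null-859 also stood furthest towards one end of the first principal component, which carried 33.8% of the variance, with scores of 14.8 and 42.2 against -28.6 to 5.55 for the other libraries.

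Few genes passed the test. Transcripts of both REV-ERB receptors, of the alanine aminotransferase Gpt, of the mitochondrial arginase Arg2, of the neuronal leucine-rich repeat protein Lrrn1 and of 2 long noncoding RNAs, Gm26809 and Gm26880, were higher in AD, and the chromatin remodeller Hells was lower. These 8 were the genes past a Benjamini-Hochberg adjusted p of 0.05 in edgeR's quasi-likelihood test, 0.0548% of the 14604 genes tested, with 7 higher (0.0479%) and 1 lower (0.00685%). At an unadjusted p under 0.05 there were 523 genes higher (3.58%) and 658 lower (4.51%), and the median log2 fold change over all genes was -0.0024. All 3 AD libraries lay above all 3 Null libraries in 986 genes (6.75%) and below them in 973 (6.66%), so that a lack of overlap was common by itself. DESeq2 passed 35 genes higher and 17 lower out of 12672 (0.41% in all), and all 8 genes were among these 52. A covariate for the ribosomal RNA share, added after the data were seen, gave 43 genes and no longer passed Gpt (log2 fold change 1.13 with the covariate, adjusted p = 0.098), Arg2 (0.75, 0.20), Hells (-1.69, 0.11) or Lrrn1 (0.70, 0.19), while Nr1d1, Nr1d2, Gm26809 and Gm26880 still passed. The ribosomal RNA share did not overlap between the groups, so the covariate fit cannot fully separate it from genotype. A call lost with the covariate therefore does not show why it was lost. Leaving out 1 library at a time gave 4 to 26 genes, and Nr1d1, Nr1d2 and Gm26809 passed in all 6 of these fits.

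**Figure D1:**
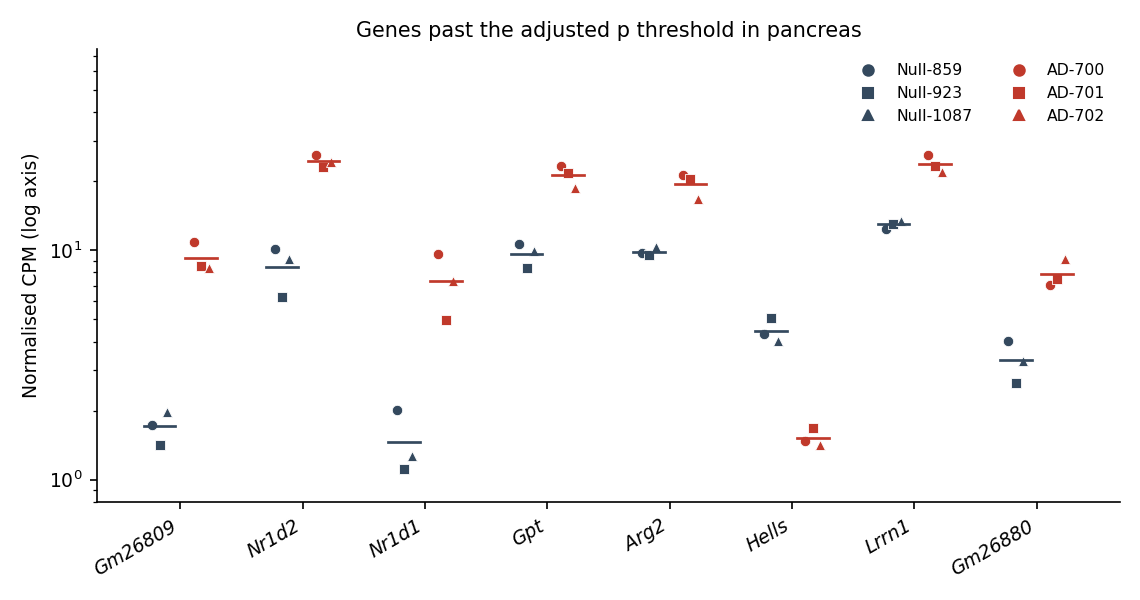
Normalised CPM on a log axis in each pancreas library for the 8 genes with an adjusted p under 0.05, AD in red and Null in blue, with a horizontal bar at the mean of each group of 3. In all 8 genes the AD and Null libraries form separate ranges, and Hells is the gene with AD below Null.

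Both REV-ERB transcripts rose together in AD pancreas. REV-ERB proteins bind heme and repress transcription, and they tie the clock to fat and sugar metabolism. Nr1d2 stood at 26.1, 22.98 and 24.3 normalised CPM in AD-700, AD-701 and AD-702 and at 10.1, 6.26 and 9.11 in Null-859, Null-923 and Null-1087. Every AD library exceeded every Null library by more than the spread within either group, and the log2 fold change was 1.52 ± 0.17 (SE, edgeR adjusted p = 0.00136). Nr1d1 read 9.67, 4.94 and 7.36 normalised CPM in AD and 2.01, 1.11 and 1.27 in Null, again without overlap, with a log2 fold change of 2.31 ± 0.29 (adjusted p = 0.00408). Nr1d1 lies on chromosome 11 from 98767932 to 98775333 (GRCm38, minus strand) and overlaps the thyroid receptor gene Thra on the other strand, whether counting used strand was not given in the sources used here, and Thra itself read 18.4 normalised CPM in AD and 18.3 in Null (log2 fold change 0.01 ± 0.17). Nr1d2 lies on chromosome 14 from 18204054 to 18239127, on the minus strand, and overlaps no annotated gene.

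Beyond the REV-ERBs, no member of the clock loop was among the 8 genes past the threshold. Of 17 tested members of the core loop, 2, Nr1d1 and Nr1d2, passed upward and none downward, against 0.0479% and 0.00685% of all genes, and 4 stood lower at an unadjusted p under 0.05 (23.5%, against 4.51% of all genes), with a list median of -0.03. Npas2, Bhlhe40 and Arntl were among these, and they and the other clock genes below were chosen after their values were seen. Arntl, the BMAL1 gene, read 17.1, 14.6 and 8.22 normalised CPM in AD and 20.6, 19.8 and 17.3 in Null, so the AD libraries were all below the Null ones but AD-700 by little (log2 fold change -0.53 ± 0.22, adjusted p = 0.57). Npas2, the partner that can stand in for CLOCK, read 0.54, 0.88 and 0.90 in AD and 1.63, 2.78 and 1.65 in Null (-1.37 ± 0.36, adjusted p = 0.28). Without a filter on low counts Npas2 passed in edgeR (-1.36, adjusted p = 0.039). Cry1, a repressor of BMAL1, read 4.22, 5.36 and 3.59 in AD and 3.79, 12.6 and 12.3 in Null, where Null-859 lay with the AD libraries (-1.12 ± 0.46, adjusted p = 0.62). It passed without Null-859 (-1.503, adjusted p = 0.0073) and with the ribosomal RNA covariate (-2.58, adjusted p = 0.017). Clock itself did not pass, at -0.01 ± 0.14, nor did the REV-ERB competitor Rora, at 0.25 ± 0.14. Among 20 tested clock outputs none passed in edgeR with the filter on low counts, and 1 passed in DESeq2. At an unadjusted p under 0.05, 3 stood higher (15%, against 3.58% of all genes) and 2 lower (10%, against 4.51%). The repressor Nfil3 read 4.47, 6.03 and 4.71 in AD and 7.48, 15.2 and 8.40 in Null (-1.02 ± 0.25, adjusted p = 0.27), and Por, the electron donor of the cytochromes P450, read 37.8, 26.9 and 24.6 in AD and 10.7, 10.15 and 16.7 in Null (1.25 ± 0.21, adjusted p = 0.090). The groups did not overlap for either gene, and Null-923 held the highest Nfil3 level. Without a filter on low counts Nfil3 (adjusted p = 0.00012), Por (6.3e-11) and Tef (0.0195) passed in edgeR. Por also passed in DESeq2 (adjusted p = 3.3e-05), but not with the ribosomal RNA covariate (adjusted p = 0.43). Dbp, a clock output driven through E-boxes, was low in this organ, at 0.44, 0.42 and 1.33 in AD and 0.48, 0.56 and 0.61 in Null, and its higher mean in AD came from AD-702 (0.41 ± 0.51, and -0.35 without that library).

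The promoters of the clock genes were read for the letters bound by these factors. RefSeq promoters (GRCm38.p6, 250 bases before to 50 after the annotated start) were searched on both strands for TAGGTCA, the core of the element that REV-ERB and ROR proteins bind, which 2.61% of 32851 promoters held, for the E-box CACGTG (7.15%) and for the E2F site TTTCCCGC (1.07%). Of the 8 genes past the threshold, 4 had a promoter in the table (Nr1d1, Nr1d2, Lrrn1 and Hells). TAGGTCA was found in Arntl, 1 of 14 matched core loop genes, and in Nfil3 and Leo1, 2 of 18 matched outputs. Npas2 was not among the genes in which it was found. CACGTG was found in Per1, Cry1 and Bhlhe41 of the core loop and in 5 of 18 matched outputs (Tef, Ciart, Sirt1, Lonrf3 and Tspan4). These counts are per gene, over 22 core loop and 25 output starts, while the shares above are per promoter. A match is a description of these letters and not evidence of binding. The promoters of Nr1d1, which rose, and of Arntl and Nfil3, whose readings were lower in AD, are shown with TAGGTCA, or its reverse complement TGACCTA, in capitals. The element starts at base 281 in Arntl and at base 239 in Nfil3, and in the shown window Nr1d1 held none of the 3 motifs.
Nr1d1, chr11:98775328-98775627, minus strand: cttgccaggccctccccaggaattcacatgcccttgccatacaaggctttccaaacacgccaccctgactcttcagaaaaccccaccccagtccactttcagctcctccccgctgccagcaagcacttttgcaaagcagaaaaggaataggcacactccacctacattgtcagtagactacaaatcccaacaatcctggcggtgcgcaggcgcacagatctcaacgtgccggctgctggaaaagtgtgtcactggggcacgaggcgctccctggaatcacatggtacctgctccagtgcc
Arntl, chr7:113207261-113207560, plus strand: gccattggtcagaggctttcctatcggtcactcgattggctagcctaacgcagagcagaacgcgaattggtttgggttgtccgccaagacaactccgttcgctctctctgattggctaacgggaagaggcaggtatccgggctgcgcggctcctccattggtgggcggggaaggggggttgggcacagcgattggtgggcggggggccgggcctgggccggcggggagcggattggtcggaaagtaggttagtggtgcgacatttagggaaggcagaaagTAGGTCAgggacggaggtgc
Nfil3, chr13:52980990-52981289, minus strand: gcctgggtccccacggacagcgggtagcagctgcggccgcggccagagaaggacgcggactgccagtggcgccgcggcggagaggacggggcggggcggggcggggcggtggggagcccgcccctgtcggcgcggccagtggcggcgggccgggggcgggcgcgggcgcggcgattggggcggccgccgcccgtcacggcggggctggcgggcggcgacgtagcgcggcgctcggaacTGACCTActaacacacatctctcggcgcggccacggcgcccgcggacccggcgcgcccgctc

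The same clock transcripts were then read in the other unirradiated tissues of AD and Null mice, each with its own fit, in which 0.267% of genes passed in liver, 0.015% in intestine and 0.774% in thymus. In liver the log2 fold change of Nr1d2 was 2.05 ± 0.14 (adjusted p = 0.00018) and in intestine 1.54 ± 0.25 (adjusted p = 0.34), against 1.52 in pancreas, and in thymus it was 0.09 ± 0.10. Nr1d1 read 2.58 ± 0.83 in liver, 1.505 ± 0.39 in intestine and 0.76 ± 0.21 in thymus, with none of the 3 past the threshold. Tef and Dbp passed in liver (1.83 ± 0.14 and 4.94 ± 0.26), where Arntl (-1.03 ± 0.12) and Npas2 (-1.77 ± 0.25) also passed in the other direction. In pancreas Tef read 0.63 ± 0.22 and did not pass with the filter on low counts. The pancreas difference of Nr1d2 minus the mean of the other 3 tissues was 0.34 ± 0.22 on the log2 scale and that of Nr1d1 0.73 ± 0.66, and neither passed (adjusted p = 0.74 and 0.86). Against intestine and liver only, without thymus, the difference of Nr1d2 was -0.23. The tissues come from overlapping sets of mice and are not independent of each other. Whether the AD and Null mice were killed at the same hour was not given in the labels, and the part of harvest time in these values was not tested.

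**Figure D2:**
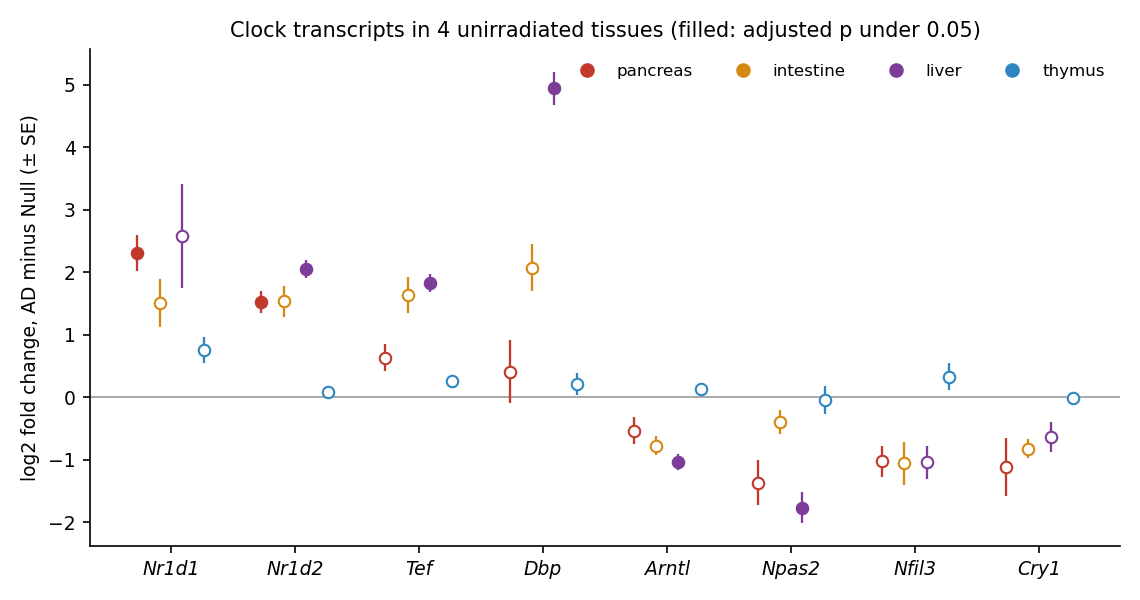
The log2 fold change of 8 clock transcripts, AD minus Null, with standard errors, in each of 4 unirradiated tissues, and filled points for an adjusted p under 0.05 in that tissue's fit. Nr1d1 and Nr1d2 lie above 0 in all 4 tissues, Nr1d2 at 0.09 in thymus, and Dbp lies at 4.94 in liver against 0.41 in pancreas.

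The enzymes that passed act on alanine and arginine. Gpt, which moves the amino group of alanine to make pyruvate and glutamate, read 23.4, 21.7 and 18.7 normalised CPM in AD and 10.6, 8.34 and 9.96 in Null (log2 fold change 1.14 ± 0.15, adjusted p = 0.0065). Arg2, which splits arginine into ornithine and urea in mitochondria, read 21.3, 20.5 and 16.7 in AD and 9.68, 9.55 and 10.3 in Null (0.99 ± 0.15, adjusted p = 0.019). AD-702 was the lowest AD library for both, and still stood above all 3 Null libraries. Gpt lies on chromosome 15 from 76695716 to 76699686 and Arg2 on chromosome 12 from 79130777 to 79156301, where it overlaps Vti1b, which read 0.13 ± 0.16 on the log2 scale.

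Of 29 tested genes of amino acid and polyamine metabolism, these 2 passed, and 9 stood higher (31.0%, against 3.58% of all genes) and 1 lower (3.45%, against 4.51%) at an unadjusted p under 0.05, with a median log2 fold change of 0.17. The others named here were chosen after their values were seen. Cth, which makes cysteine from cystathionine, read 45.5, 40.6 and 32.7 in AD and 23.9, 27.4 and 26.4 in Null (0.61 ± 0.14, adjusted p = 0.24), and Gls2, a glutaminase and p53 target, 104, 72.1 and 72.5 in AD and 60.5, 45.4 and 47.5 in Null (0.70 ± 0.18, adjusted p = 0.27). Prodh, which starts proline breakdown and is another p53 target, read 27.1, 20.1 and 30.2 in AD and 18.8, 8.79 and 11.04 in Null (0.999 ± 0.27, adjusted p = 0.39), and passed without Null-859 (adjusted p = 0.016) and with the ribosomal RNA covariate (adjusted p = 0.015). In all 3 genes each AD library lay above each Null library, and all 3 passed in DESeq2 (adjusted p = 0.049 for Cth, 0.025 for Gls2 and 0.014 for Prodh). Arg1, the cytosolic arginase, was the member that stood lower, at 0.15, 0.21 and 0.51 in AD and 2.44, 0.56 and 0.61 in Null, where Null-859 set most of the difference (-2.02 ± 0.65, adjusted p = 0.44). With the ribosomal RNA share as a covariate 4 members stood higher at an unadjusted p under 0.05 and the list median was 0.01. Neither Gpt nor Arg2 passed in any other tissue, where Gpt read 0.19 to 0.22, and Arg2 read 0.15 ± 0.13 in intestine, -0.45 ± 0.45 in liver and -0.24 ± 0.19 in thymus. The pancreas difference minus the mean of the others was 1.20 ± 0.22 for Arg2 (adjusted p = 0.090) and 0.97 ± 0.24 for Gpt (adjusted p = 0.19). In this fit, which did not use the mouse as a block, neither passed. For Arg2 the adjusted p was 0.019 with the mouse as a replicate block, 0.25 against intestine and liver only and 0.018 without AD-702, and it did not pass with any other single library left out. DESeq2 passed 135 genes in this test of tissues, among them Arg2 (adjusted p = 0.00025) and Gpt (0.035).

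Targets of the PPAR receptors held the largest count of higher readings among the lists described here. PPARs are nuclear receptors that fatty acids activate, and in liver and muscle PPAR-alpha switches on import of fatty acids into mitochondria and their oxidation. Of 55 tested targets none passed the adjusted threshold in edgeR, 3 passed in DESeq2, and 20 stood higher and 0 lower at an unadjusted p under 0.05 (36.4% and 0%, against 3.58% and 4.51% of all genes). The median log2 fold change was 0.28, with 42 members positive. The count was 12 without AD-700 and 12 with the ribosomal RNA share as a covariate, and 16 to 25 in the other alternatives. Without the genes that are also adipocyte markers, 18 of 50 stood higher and the median was 0.26. By their sum the targets read 940 to 1387 normalised CPM in AD and 823 to 926 in Null, and AD-702 was close to Null-859. The summed adipocyte markers overlapped between the groups, at 111 to 198 in AD and 97.0 to 126 in Null. Of 11 tested adipocyte markers none passed, 9 were positive, and the median log2 fold change was 0.46. At an unadjusted p under 0.05, 2 stood higher (18.2%, against 3.58% of all genes) and 1 lower (9.09%, against 4.51%). The part of adipocyte content in the PPAR target readings was not tested.

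Single steps of fatty acid use, chosen after their values were seen, read as follows. Cpt1a, which commits long-chain fatty acids to entry into mitochondria, read 72.0, 53.4 and 55.3 normalised CPM in AD and 40.3, 34.4 and 21.6 in Null (log2 fold change 0.91 ± 0.21, adjusted p = 0.25). Acadl, a dehydrogenase of the first oxidation step, read 19.7, 16.96 and 14.7 in AD and 10.3, 7.07 and 10.8 in Null (0.86 ± 0.18, adjusted p = 0.16). Eci2, which shifts double bonds of unsaturated fatty acids, read 17.9, 16.2 and 13.3 in AD and 11.5, 6.77 and 7.88 in Null (0.86 ± 0.19, adjusted p = 0.22). The 3 genes did not overlap between the groups, and they passed in DESeq2 (adjusted p = 0.0053, 0.013 and 0.027). With the ribosomal RNA covariate in edgeR they did not (adjusted p = 0.32, 0.32 and 0.22). Pdk4, which shuts pyruvate out of oxidation, spread widely within each group and overlapped, at 29.2, 15.3 and 3.295 in AD and 4.03, 0.25 and 1.32 in Null (3.07 ± 1.23, adjusted p = 0.65). It was highest in AD-700 and lowest in Null-923, and it is known to rise on fasting. In intestine the log2 fold change of Cpt1a, Acadl and Eci2 was 0.01, -0.12 and 0.03, in liver 0.50, -0.10 and 0.15, and in thymus 0.37, 0.67 and 0.13, and Acadl in thymus was the single value of these to pass (adjusted p = 0.0013). The pancreas value minus the mean of the others did not pass for any of the 3 (adjusted p = 0.32, 0.16 and 0.16).

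The receptors, their partners and other branches of fat and sugar metabolism held none of the 8 genes past the threshold, and Ppargc1a, Pprc1 and Gpam were chosen after their values were seen. In DESeq2 1 gene of fatty acid synthesis passed, lower in AD. Of 15 tested receptors and coactivators none passed, with Ppargc1a, the coactivator PGC1-alpha, higher (0.64 ± 0.23) and its relative Pprc1 lower (-0.42 ± 0.17) at an unadjusted p under 0.05 (6.67% each, against 3.58% and 4.51% of all genes). Rxra, the partner of every PPAR on DNA, read 0.30 ± 0.15. Nuclear genes of oxidative phosphorylation had a median of 0.08, with 1 of 59 higher at an unadjusted p under 0.05 (1.69%, against 3.58% of all genes). Glycolysis had 4 of 25 lower at an unadjusted p under 0.05 (16%, against 4.51% of all genes) and a median of -0.19. Its members of highest level, Aldoa, Pkm, Gpi1 and Ldha, read -0.06 ± 0.14, -0.25 ± 0.14, -0.01 ± 0.13 and -0.36 ± 0.15, and its summed level did not overlap, at 345 to 376 normalised CPM in AD and 386 to 420 in Null. Cholesterol synthesis had all 24 members negative, with 3 lower at an unadjusted p under 0.05 (12.5%) and a median of -0.16. In fatty acid synthesis the desaturase Scd2 read 47.5, 48.5 and 52.4 in AD and 63.7, 120 and 114 in Null (-1.003 ± 0.21, adjusted p = 0.16), and 4 of 20 members were lower (20%, against 4.51% of all genes) and 1, Gpam, higher at an unadjusted p under 0.05 (5%, against 3.58%).

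**Figure D3:**
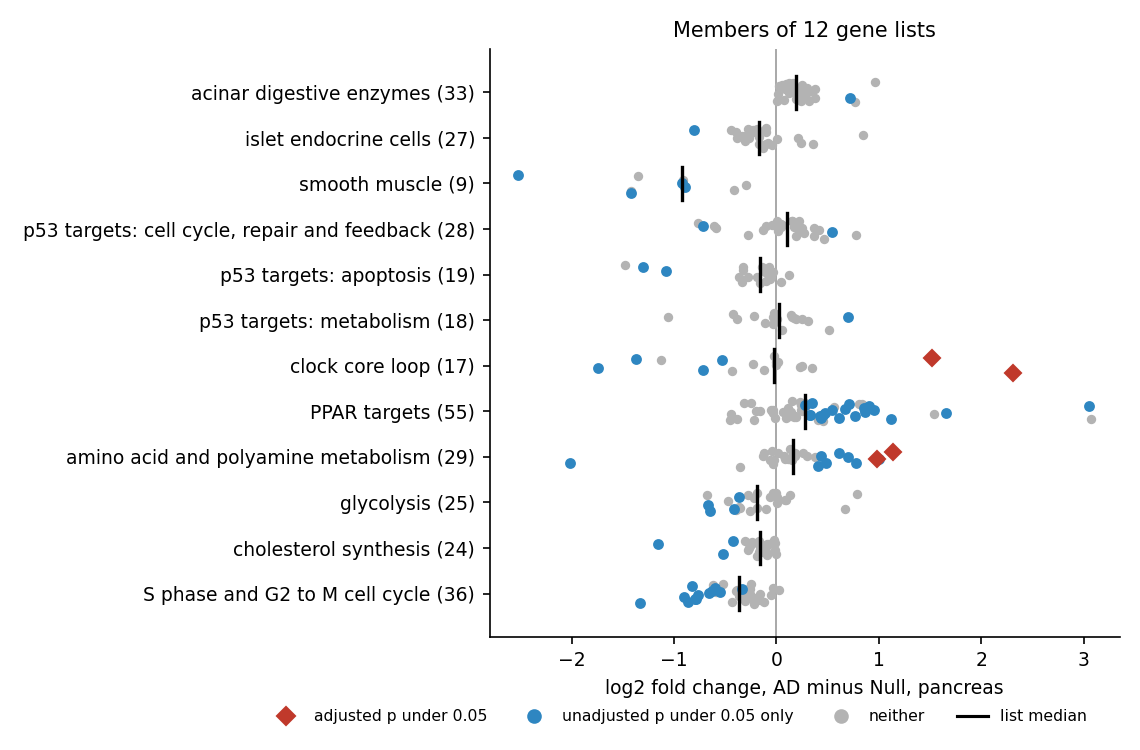
Each point is 1 tested gene of 12 gene lists, placed at its log2 fold change, AD minus Null, in pancreas, with the number tested in brackets, list medians as black bars, diamonds for an adjusted p under 0.05 and blue for an unadjusted p under 0.05 only. PPAR targets lie right of 0 with a median of 0.28, cell cycle genes left of it with a median of -0.36, and 4 diamonds appear, for Nr1d1, Nr1d2, Gpt and Arg2.

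Hells was the single gene past the threshold that was lower in AD. It encodes a remodeller of the SNF2 family that supports DNA methylation and is made in dividing cells, and it read 1.47, 1.67 and 1.41 normalised CPM in AD and 4.31, 5.05 and 4.01 in Null, with no overlap and a log2 fold change of -1.55 ± 0.24 (adjusted p = 0.020). It lies on chromosome 19 from 38930915 to 38971051. It did not pass without AD-700, AD-701 or Null-923, nor with the ribosomal RNA covariate, where it read -1.69 (adjusted p = 0.11). Of 36 tested genes of S phase and of the passage from G2 to M, 0 passed in edgeR and 35 were negative, while DESeq2 passed 2, both lower. At an unadjusted p under 0.05, 12 stood lower and 0 higher (33.3%, against 4.51% of all genes), and the median was -0.36. Over the alternatives the count was 8 to 13 and it was 8 both without Null-1087 and with the ribosomal RNA covariate. The list summed to 184 to 205 normalised CPM in AD and 238 to 280 in Null, without overlap.

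Single replication genes, chosen after their values were seen, read as follows. Mcm5 and Mcm6, subunits of the replicative helicase, read 3.78, 3.47 and 3.42 against 6.23, 7.33 and 6.42 (log2 fold change -0.90 ± 0.18) and 7.56, 7.49 and 6.08 against 12.3, 13.3 and 11.1 (-0.79 ± 0.16), each with an adjusted p of 0.15. Cdc6, which loads that helicase, read 1.18, 1.05 and 1.07 in AD and 2.35, 3.28 and 2.69 in Null (-1.33 ± 0.28, adjusted p = 0.16). Slbp, the protein that processes histone mRNA in S phase, read 2.80, 2.55 and 2.82 in AD and 6.04, 4.65 and 6.32 in Null (-1.06 ± 0.20, adjusted p = 0.13). In these 4 genes the AD range lay below the Null range. Mcm5, Mcm6 and Slbp passed in DESeq2 (adjusted p = 0.049, 0.029 and 0.028) and with an Xist covariate in edgeR (0.038, 0.036 and 0.038). Without a filter on low counts Mcm5, Mcm6, Cdc6 and Slbp passed in edgeR (adjusted p = 0.0088, 0.0056, 0.010 and 0.0026). Cdc6 and Slbp also passed with the 23 libraries in 1 edgeR fit (0.0025 and 0.0014). With the ribosomal RNA covariate in edgeR none of the 4 passed (adjusted p = 0.18, 0.17, 0.19 and 0.30, in the order Mcm5, Mcm6, Cdc6, Slbp). The 4 members of highest level were the proliferation markers Mki67, Top2a and Pcna, at -0.21 ± 0.17, -0.33 ± 0.15 and -0.05 ± 0.18, and Mcm2, another helicase subunit, at -0.62 ± 0.21. In liver Hells read -1.04 ± 0.29 (adjusted p = 0.27) and Cdc6 -1.34 ± 0.31 (adjusted p = 0.16), while in intestine they read 0.04 ± 0.11 and -0.23 ± 0.12 and in thymus -0.34 ± 0.10 and -0.35 ± 0.11, none past the threshold. The pancreas difference of Hells minus the mean of the others was -1.07 ± 0.26 and did not pass in edgeR (adjusted p = 0.19). In DESeq2 this difference passed (-1.09, adjusted p = 0.022). E2F factors drive many replication genes, and the E2F site TTTCCCGC was found in 3 of 30 matched genes of the list (Mcm3, Mcm7 and Cdc6) and in Hells, shown here with the site in capitals from base 189.
Hells, chr19:38930740-38931039, plus strand: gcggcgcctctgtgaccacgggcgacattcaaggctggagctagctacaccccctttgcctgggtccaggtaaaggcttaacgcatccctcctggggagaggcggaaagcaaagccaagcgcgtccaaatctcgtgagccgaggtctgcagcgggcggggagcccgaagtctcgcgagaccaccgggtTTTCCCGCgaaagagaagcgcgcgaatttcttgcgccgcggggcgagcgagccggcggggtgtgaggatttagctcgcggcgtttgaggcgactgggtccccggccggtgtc

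**Figure D4:**
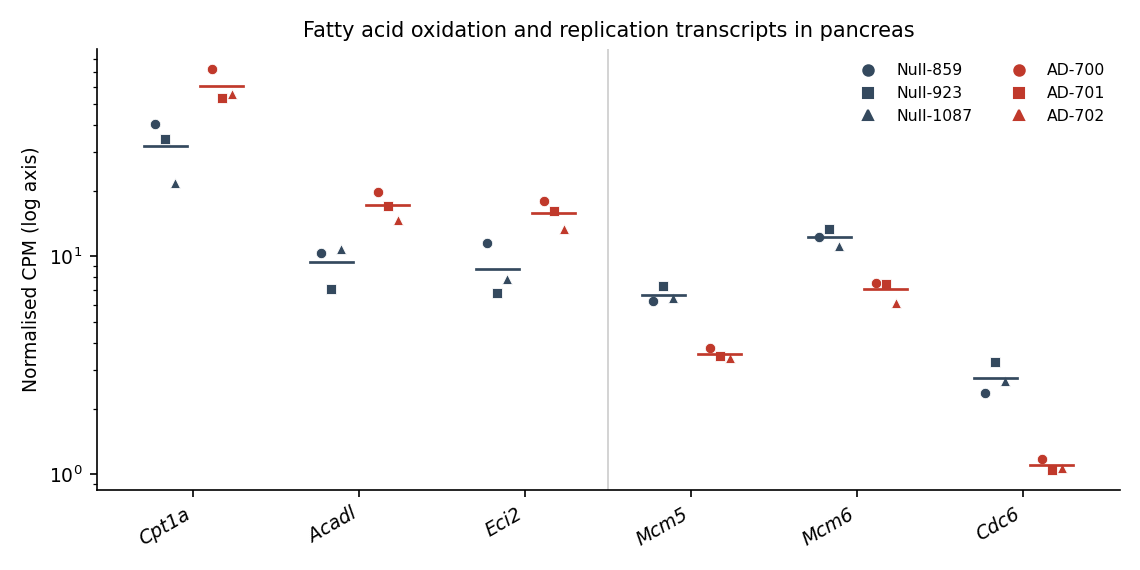
Normalised CPM on a log axis in each pancreas library for 3 genes of fatty acid oxidation and, right of the grey line, 3 genes of replication origins, AD in red, Null in blue, with a bar at the mean of each group of 3. The AD points lie above the Null points for Cpt1a, Acadl and Eci2 and below them for Mcm5, Mcm6 and Cdc6, and none of the 6 was among the 8 genes past the adjusted threshold.

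The remaining 3 genes that passed have no place in these pathways. Gm26809, a long intergenic noncoding RNA on chromosome 6 from 18844220 to 18847360 on the plus strand, read 10.8, 8.54 and 8.35 normalised CPM in AD and 1.73, 1.41 and 1.98 in Null. Its log2 fold change of 2.43 ± 0.21 (adjusted p = 7.64e-05) had the smallest adjusted p of all genes tested. It overlaps the noncoding RNA Gm20186 on the minus strand and lies 1219 bases from Lsm8, which read -0.09 ± 0.23. In the other tissues its difference was 0.36 ± 0.22 in intestine, 0.63 ± 0.32 in liver and 0.19 ± 0.12 in thymus, although its level in thymus was higher than in pancreas, at a mean of 15.3 normalised CPM over 3 AD mice (SD 0.996) and of 13.3 over 2 Null mice (SD 0.0729), each tissue being scaled on its own. The pancreas difference exceeded the mean of the other tissues by 2.07 ± 0.27 (adjusted p = 0.0019), and this was 1 gene of 24431 (0.00409%) to pass that test, with 2013 (8.24%) at an unadjusted p under 0.05. That fit did not use the mouse as a block, and with the mouse as a replicate block the difference was 2.05 (adjusted p = 0.017). Against intestine and liver only, without thymus, the difference of Gm26809 was 1.96 and no longer passed (adjusted p = 0.077). Lrrn1, a membrane protein with leucine-rich repeats, read 25.9, 23.2 and 21.8 in AD and 12.3, 13.03 and 13.4 in Null (0.87 ± 0.14, adjusted p = 0.022), and lies on chromosome 6 from 107529768 to 107570214. Gm26880, on chromosome 4 from 146509094 to 146511764, read 7.02, 7.45 and 9.16 in AD and 4.03, 2.63 and 3.303 in Null (1.24 ± 0.20, adjusted p = 0.031). It overlaps Zfp981 and another noncoding gene, so its reads could belong to either. Gm26809 and Gm26880 fall outside the rule for named genes and were chosen after their values were seen. Just outside the threshold came Synpo2 and Por, both at an adjusted p of 0.090.

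Neither Trp53 nor any p53 target on the lists was among the 8 genes past the threshold. Without a filter on low counts the glutaminase Gls2 passed in edgeR (log2 fold change 0.71, adjusted p = 0.0071). Prodh, called a p53 target above, is not on the p53 lists and did not pass in the main fit (adjusted p = 0.39). It passed in edgeR without that filter (1.01, adjusted p = 1.3e-06), with an Xist covariate (0.017) and with the ribosomal RNA covariate (0.015). In DESeq2 Prodh passed too (adjusted p = 0.014). Trp53, on chromosome 11 from 69580359 to 69591873, read 2.70, 3.52 and 4.19 normalised CPM in AD and 4.79, 4.19 and 3.96 in Null, so the groups overlapped and transcript level in pancreas did not check the genotype labels (log2 fold change -0.31 ± 0.22, adjusted p = 0.76). In the other tissues Trp53 read 0.68 ± 0.11 in thymus (adjusted p = 0.0063), 0.61 ± 0.10 in intestine (0.20) and 0.19 ± 0.22 in liver (0.86). The arrest gene Cdkn1a read 12.2, 13.9 and 2.53 in AD and 7.29, 3.08 and 11.7 in Null, as variable within the groups as between them (0.37 ± 0.83). The p53 ubiquitin ligase Mdm2 was nearly level, at 19.8, 20.4 and 19.8 in AD and 20.04, 20.4 and 18.97 in Null (0.01 ± 0.13). Ccng1, a cyclin that p53 induces, read -0.04 ± 0.14, the death genes Bax and Bbc3 read -0.16 ± 0.24 and -0.33 ± 0.37, and Phlda3, an inhibitor of AKT, read -0.77 ± 0.51. Trp53inp1, a stress gene induced in pancreatitis, read 0.27 ± 0.49 and Zmat3, an RNA-binding target, 0.25 ± 0.17. None of the 9 passed, with adjusted p from 0.74 to 0.99. Among 28 tested targets of arrest, repair and feedback, 19 of apoptosis and 18 of metabolism, 0 passed and the medians were 0.10, -0.16 and 0.03. At an unadjusted p under 0.05 the arrest list had 1 member higher (3.57%, against 3.58% of all genes) and 1 lower (3.57%, against 4.51%). Apoptosis had 0 higher and 2 lower (10.5%), with 17 of 19 negative. Metabolism had 1 higher (5.56%), Gls2 described above, with 1 member past the threshold in DESeq2. With the ribosomal RNA share as a covariate Ccng1 read -0.47 (adjusted p = 0.28). Within 10 Mb of Trp53, 0 of 296 tested genes passed, and 7.77% had an unadjusted p under 0.05 against 8.09% of all genes.

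Cell composition was read from marker lists. All 33 acinar enzymes had a positive log2 fold change with a median of 0.19, which was -0.28 with the ribosomal RNA share as a covariate. None passed, and 1 stood higher at an unadjusted p under 0.05 (3.03%, against 3.58% of all genes). Their share of counts was 66.7% (SD 2.62) over the 3 AD mice and 58.9% (SD 7.11) over the 3 Null mice, with an exact permutation p of 0.1. With ribosomal RNA genes left out of the total the shares were 68.1% (SD 1.87) and 64.7% (SD 3.49), 3.47 percentage points apart with an exact permutation p of 0.3, and 60.7% in Null-859 was the lowest. In bulk tissue fewer cells of a type and less RNA per cell cannot be told apart. Islet genes had a median of -0.17, with Ins2, Ins1 and Gcg at -0.17 ± 0.19, -0.19 ± 0.17 and -0.08 ± 0.19, with 1 lower at an unadjusted p under 0.05 (3.7%). Duct genes had a median of -0.18 with 14 of 18 negative and 3 lower (16.7%, against 4.51% of all genes), and those of highest level, Clu, Krt18, Muc1 and Krt8, read 0.14 ± 0.20, 0.18 ± 0.17, 0.01 ± 0.16 and -0.01 ± 0.15. None of 27 islet and 18 duct genes passed.

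No marker of vessel wall or stroma was among the 8 genes past the threshold. All 9 tested smooth muscle genes were negative (median -0.92), and 4 stood lower at an unadjusted p under 0.05 (44.4%, against 4.51% of all genes). Their sum was 26.6, 27.4 and 40.8 normalised CPM in AD and 125, 46.6 and 48.2 in Null, so the groups did not overlap and Null-859 stood far above every other library. Synpo2, an actin-binding protein of muscle, was the one nearest to the threshold, at 5.497, 6.41 and 5.44 in AD and 11.5, 11.4 and 9.44 in Null (-0.90 ± 0.16, adjusted p = 0.090). Synpo2 passed in DESeq2 (adjusted p = 0.012) and in edgeR without a filter on low counts (0.0014) or with an Xist covariate (0.028). Mylk passed with the Xist covariate (-1.36, adjusted p = 0.0076). With the ribosomal RNA covariate neither passed (adjusted p = 0.22 for Synpo2 and 0.69 for Mylk). The list median was -0.46 without Null-859, and 0.36 with the ribosomal RNA share as a covariate. Endothelial genes had 12 of 12 members negative, 4 lower at an unadjusted p under 0.05 (33.3%) and a median of -0.30, and fibroblast genes had 18 of 20 negative, 4 lower (20%) and a median of -0.25. Pecam1, an endothelial adhesion molecule, read -0.32 ± 0.13 and the collagens Col1a2 and Col1a1 read -0.50 ± 0.17 and -0.66 ± 0.25. Macrophage genes had a median of -0.19 with 1 of 13 on each side at an unadjusted p under 0.05 (7.69% each, against 3.58% higher and 4.51% lower over all genes). All 17 tested antigen presentation genes were negative (median -0.35), with 1 lower at that p (5.88%). All 39 tested cytosolic ribosomal protein genes were positive, with a median of 0.19 and none past an unadjusted p of 0.05. The ribosomal RNA share and the smooth muscle sum did not overlap between the groups. Their part in the other differences and that of genotype cannot be told apart, also with the covariate fit.

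**Figure D5:**
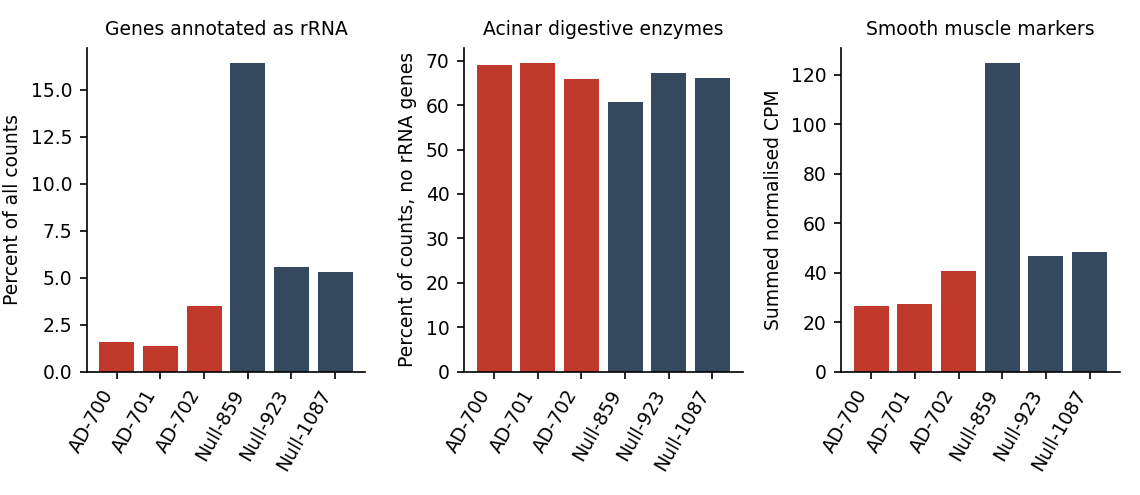
From left to right, the percent of all counts in genes annotated as ribosomal RNA, the percent of the remaining counts in acinar enzymes and the summed normalised CPM of smooth muscle markers, 1 bar per pancreas library, AD in red and Null in blue. Null-859 is highest in ribosomal RNA (16.4%) and smooth muscle (125) and lowest in the acinar share (60.7%), and the groups overlap in the acinar share only.

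Stress programmes of the exocrine pancreas held none of the 8 genes past the threshold. In DESeq2 1 gene of the integrated stress response and 1 of the acute phase and pancreatitis list passed, both higher in AD. Of 29 tested genes of the unfolded protein response, 25 of the integrated stress response and 18 heat shock chaperones, 0, 3 (12%) and 0 stood higher and 0, 0 and 2 (11.1%) lower at an unadjusted p under 0.05, against 3.58% and 4.51% of all genes. Hspa5, the main chaperone of the endoplasmic reticulum, read -0.33 ± 0.48 and Atf4 -0.19 ± 0.21. The acute phase and pancreatitis list had 1 of 14 higher (7.14%) and 2 lower (14.3%), with Reg3b, a secreted lectin that soars in pancreatitis, at 0.01 ± 0.21. Interferon-stimulated genes had 1 of 28 higher (3.57%) and 4 lower (14.3%) with a median of -0.23. Among NRF2 targets, which protect from oxidants, 0 of 21 stood higher and 1 lower (4.76%), and the metallothionein Mt1, the most abundant of them, read 285, 313 and 246 in AD and 195, 101 and 41.6 in Null without overlap (1.32 ± 0.56, adjusted p = 0.65).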

How the data were processed

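RNA sequencing counts of pancreas were compared between 3 AD and 3 Null mice. The submitters' processing notes name STAR 2.6.0b, the GRCm38 build and DESeq2. The deposited table holds the authors' raw counts for 49585 gene identifiers. The counter, its strand setting and the annotation release are not given in the sources used here. GENCODE M21 named 43749 identifiers by their version, 5577 without it and left 259 unnamed. Genes passing filterByExpr were scaled by TMM and tested in R 4.3.3 with edgeR 4.0.16 (robust quasi-likelihood F test, Benjamini-Hochberg, threshold 0.05). Standard errors are the log2 fold change over the square root of F. Log2 CPM used a prior count of 2. Depth was 19861977 to 24815911 counts, and the biological coefficient of variation was 0.184. Within groups, pairs of libraries differed with a chi-square per degree of freedom of 7.67 to 136, so none was a copy.

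The tissue test used 23 unirradiated libraries of AD and Null pancreas, intestine, liver and thymus and the contrast of the pancreas difference with the mean of the others. Samples of a mouse were matched by animal number in the labels. Over 17 such pairs the median correlation of residuals across 12211 genes was 0.13, with 11 above 0.1. The main tissue test did not use this pairing and treated the 23 libraries as independent. Alternatives were RLE scaling, no filter, acinar enzymes left out of library sizes, DESeq2 1.42.0, limma 3.58.1 voom, 1 fit of 23 libraries, an Xist covariate, the mouse as block, and each library left out. Leaving out ribosomal RNA genes and the ribosomal RNA covariate were added after the data were seen. The script was tested on simulated data.

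Members and gene lists were chosen with earlier results of these data known. Named were 9 fixed p53 genes, genes past the threshold whose mean reached 1 log2 CPM and whose name is not that of a predicted gene, and up to 4 members of a list, those past the threshold first and then those of highest level. Any other is said to have been chosen after its values were seen. Lists are described by counts and medians with no test. Some genes that met this rule are left out of the text.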

Additional observations from a re-analysis of the deposited data

Results flagged for a closer look

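The AD minus Null difference of Gm26809 in pancreas exceeded the mean of that in intestine, liver and thymus by 2.07 on the log2 scale, and the test of this difference between tissues passed (edgeR adjusted p = 0.0019). Against intestine and liver only the difference was 1.96 and did not pass (adjusted p = 0.077), while in the other alternatives run it passed, with 0.017 with the mouse as a replicate block.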

How the results depend on the processing

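The 8 genes of the pancreas comparison all passed again under RLE scaling, with acinar enzymes left out of library sizes, with limma voom and with ribosomal RNA genes left out, each of which gave 8 genes. Without a filter on low counts 209 genes passed (82 higher, 127 lower), with DESeq2 52, with an Xist covariate 62, with the 23 libraries in 1 fit 18 (without Nr1d1, Lrrn1 and Gm26880) and with the ribosomal RNA covariate 43. Leaving out 1 library gave 4 to 26 genes: 4 where AD-700 or Null-923 was dropped, 5 for AD-701, 26 for AD-702, 18 for Null-859 and 10 for Null-1087. Gpt was lost without AD-700 or Null-923, Arg2, Hells and Lrrn1 without AD-700, AD-701 or Null-923, and Gm26880 without any of the libraries but Null-859. The tissue test gave 1 gene, 2 without a filter, 2 with the mouse as replicate block, 0 against intestine and liver only, 135 with DESeq2 and 1 to 86 with 1 library left out (86 without AD-702, 14 without Null-923 or Null-1087, 2 without Null-859). The sign turned with the ribosomal RNA covariate for Trp53 (0.10), Cdkn1a (-1.07), Bax (0.0474), Trp53inp1 (-0.60), Arg1 (0.62), Mylk (0.32) and Acta2 (0.36). With 1 library left out it turned for Cdkn1a (range -0.0123 to 0.871, AD-701), Mdm2 (-0.0234 to 0.038, AD-701 and Null-1087), Ccng1 (-0.138 to 0.053, AD-702 and Null-1087) and Dbp (-0.353 to 0.696, AD-702), the libraries in brackets being those whose removal turned it. It turned against intestine and liver only for the tissue difference of Nr1d2 (-0.23). The causes were not tested. Ccng1 moved from -0.04 to -0.47 with the ribosomal RNA covariate, without a change of sign.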
